A study of Mus musculus with 11 samples.

Results

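RXR, the retinoid X receptor, and the receptors that work with it were followed through mouse liver development on 11 arrays: 10 genes were taken by name from the gene column of the array files, with every probe that carries the name. They are the 3 RXR isotypes Rxra, Rxrb and Rxrg, the partners Nr1h4 (FXR), Nr1i2 (PXR), Nr1i3 (CAR), Ppara (PPARα) and Nr1h3 (LXRα), and a pair of receptors of the same pathways, Nr0b2 (SHP) and Nr5a2 (LRH-1). The 10 genes were all found, with 12 of the 41174 probes and 10 of the 27962 gene names on the array, and all 10 were among the 16704 genes tested. The rule names genes and sets no threshold on a measured value.

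Livers were taken at embryonic day 14 (E14, 3 arrays), embryonic day 18 (E18, 3 arrays), postnatal day 5 (P5, 2 arrays, replicates 2 and 3) and postnatal day 56 (P56, 3 arrays) from mice with no treatment or engineered allele named in the labels. Liver RNA was labeled with Cy5 and hybridised to each array together with one reference for all, a commercial adult mouse liver RNA labeled with Cy3. Whether the fetal arrays hold whole liver or isolated cells is not settled: the source labels name liver, the cell type labels name hepatoblasts at E14, immature hepatocytes at E18 and hepatocytes later, and the methods mention both kinds of preparation. Strain, sex and the number of animals behind each array were not given in the labels, which call the arrays biological replicates, so p-values measure the spread between these arrays.

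RXR is a nuclear receptor that binds DNA with a partner, each protein of the pair reading one half-site of a hormone response element. FXR senses bile acids, PXR and CAR sense drugs and steroids, PPARα senses fatty acids and LXRα senses oxysterols, and in hepatocytes these pairs set bile acid, xenobiotic and lipid metabolism. LRH-1 binds DNA alone, and SHP has no DNA-binding domain and represses other receptors, LRH-1 among them.

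The probes show which stretch of each transcript was read. Sequences are printed for 1 probe each of Rxrb, Nr1i3 and Nr0b2, as examples of what was hybridised, 5′ to 3′ in lower case as the array files list them, with mm7 positions. The Rxrb probe is the dimmer of 2 and its position spans 175 bases for 60 bases of probe. The other 2 probes are the only ones for their genes.
Rxrb, chr17:32115588-32115762: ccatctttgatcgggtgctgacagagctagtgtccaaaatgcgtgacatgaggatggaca
Nr1i3, chr1:171187738-171187797: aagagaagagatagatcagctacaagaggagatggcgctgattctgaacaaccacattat
Nr0b2, chr4:132932212-132932271: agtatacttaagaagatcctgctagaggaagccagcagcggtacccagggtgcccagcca

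The 10 genes have 15 promoter entries in RefSeq on GRCm38.p6, and the 250 bases before each start site were searched on both strands for the half-site AGGTCA. It was present in 4 of the 15, and in 14% of the 32851 promoters searched. The 4 hold a single copy each in Nr1h4, Nr5a2 and Rxrg and 2 copies in the downstream start of Rxra. Paired forms of the half-site were not matched in any of the 15 entries: AGGTCANAGGTCA was in 0.0335% of all promoters, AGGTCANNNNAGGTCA in 0.0152% and AGGTCANTGACCT in 0.00609%. The extended form TCAAGGTCA, of which AGGTCA is a part, was in 0.387% of all promoters and in 0 of these 15. The promoters of Nr1h4 (minus strand) and of the downstream start of Rxra (plus strand) are printed as examples of entries with half-sites. Half-sites are in capitals, TGACCT being the half-site on the opposite strand. Both genes rose between the fetal stages, Rxra on its brighter probe. So did Nr5a2, which also has a half-site, and Nr1i2, Nr1i3, Ppara and Nr1h3, which have none there. Rxrg, with a half-site, fell, and Rxrb and Nr0b2, without one, showed no change that passed the test. A match is a description of the sequence only.
Nr1h4, chr10:89506659-89506908: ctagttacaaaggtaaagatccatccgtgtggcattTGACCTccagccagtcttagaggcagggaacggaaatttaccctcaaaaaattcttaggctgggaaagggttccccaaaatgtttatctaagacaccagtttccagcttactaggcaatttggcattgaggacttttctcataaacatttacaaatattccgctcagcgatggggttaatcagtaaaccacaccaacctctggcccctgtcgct
Rxra, chr2:27709042-27709291: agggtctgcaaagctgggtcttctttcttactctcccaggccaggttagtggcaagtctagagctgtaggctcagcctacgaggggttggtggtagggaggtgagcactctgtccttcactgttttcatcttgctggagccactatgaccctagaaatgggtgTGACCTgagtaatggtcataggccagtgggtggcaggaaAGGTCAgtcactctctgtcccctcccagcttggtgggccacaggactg

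Replicate arrays were closest at E14 and least close at P56. Pearson's r across genes between replicate arrays was 0.986 to 0.989 at E14, 0.964 to 0.982 at E18, 0.893 at P5 and 0.824 to 0.933 at P56, and the P56 replicate 2 array had the fewest spots well above background in Cy5, 16790 of 43379. The arrays came from 4 scans: scan 1 held the E14 arrays and E18 replicate 1, scan 2 the other E18 arrays, scan 3 P5 replicate 2, and scan 4 P5 replicate 3 and the P56 arrays, so fetal and postnatal stages share no scan and the 2 cannot be told apart there. In bulk RNA, fewer cells of a type and less RNA per cell cannot be told apart. The 12 mature hepatocyte markers measured had a mean log2 ratio of -4.01 to -3.78 on the E14 arrays, -1.84 to -1.71 at E18, -0.58 to -0.46 at P5 and -0.68 to 0.04 at P56. The 13 erythroid markers stood at 3.07 to 3.25 at E14, 3.16 to 3.28 at E18, 2.31 to 3.03 at P5 and -0.14 to 0.02 at P56. Other lists also moved from E14 to E18. The 7 hepatoblast markers measured went from between 3.32 and 3.36 to between 4.02 and 4.16. The 15 cell cycle markers went down, from between 3.08 and 3.22 to between 2.84 and 2.91. The 12 stellate and fibroblast markers went from between 0.38 and 0.62 to between 0.28 and 0.34. Macrophage markers, 11 in number, went from between -3.02 and -2.61 to between -1.59 and -1.31, and 13 other haematopoietic markers from between -0.06 and 0.19 to between 2.13 and 2.19. The 10 endothelial markers went from between -1.10 and -1.03 to between -0.41 and -0.36, and 6 of 7 biliary markers from between -0.20 and 0.11 to between 0.74 and 0.79. The part of cell makeup in the results was not tested.

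All values below are log2 ratios of liver to the adult liver reference after loess, so 0 means equal signal in Cy5 and Cy3. A fold change is a difference between stages on that scale. Liver was in Cy5 on every array with no dye swap, so a probe's own dye bias stays in its ratio. That bias is shared by the stages and drops out of their differences. Percentages below are of the reference signal. The 10 probes used in the fit were well above background in both channels on all 11 arrays. Some signals were still close to the limit. Rxrg at E18 read 6.31, 6.12 and 6.13 in Cy5 on the log2 scale, where 6.10 was the floor for dim probes. Receptor levels were not compared with each other, since probes differ in brightness.

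**Figure D1:**
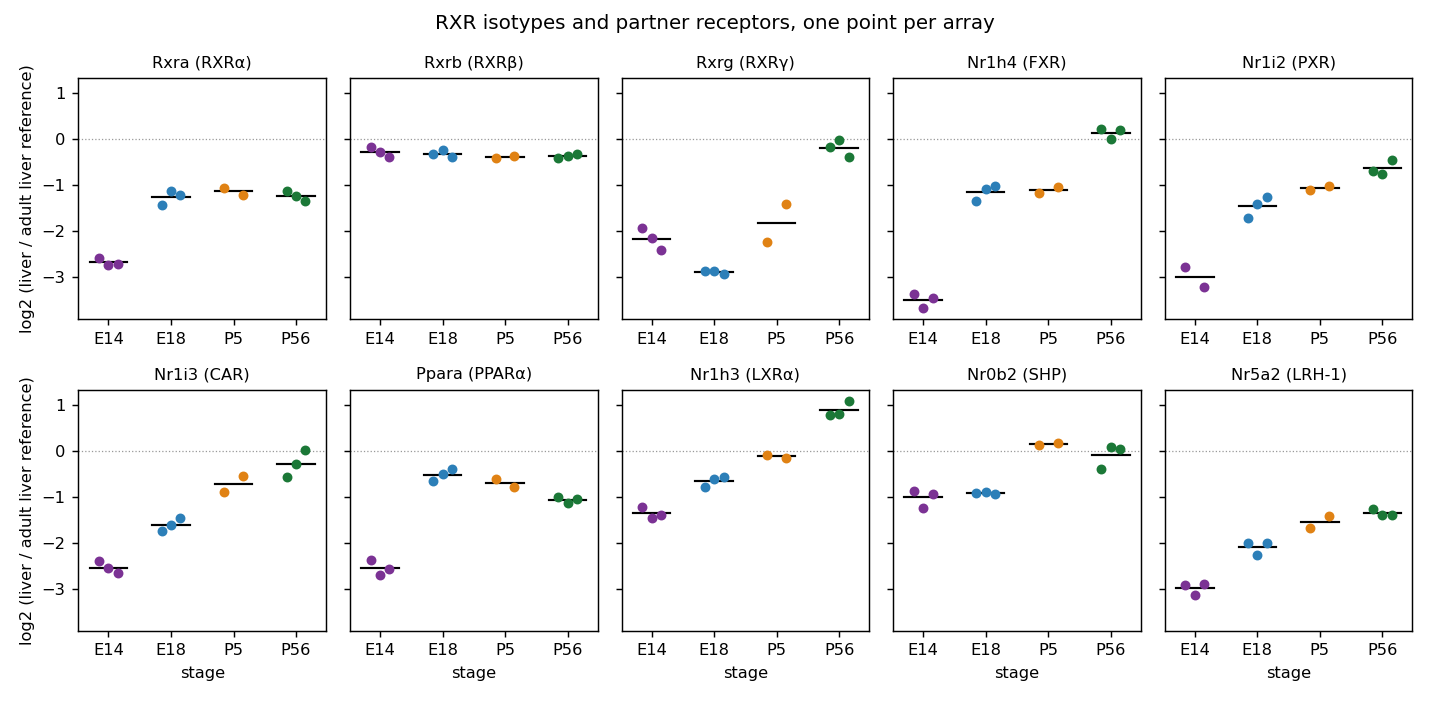
Log2 ratio of liver to the adult liver reference (y axis) for the probe used in the fit of each receptor at E14, E18, P5 and P56 (x axis). Each point is an array, each line the mean of a stage, and Nr1i2 has 2 points at E14. Rxrb stays between -0.41 and -0.17, Nr1h4 moves from below -3.3 to above 0, and Ppara has its highest mean at E18, overlapping P5.

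Rxra, the main RXR isotype of hepatocytes, rose between the fetal stages on its brighter probe. That probe (chr2:27770202-27770261) read -2.59, -2.73 and -2.72 on the E14 arrays and -1.43, -1.13 and -1.22 on the E18 arrays, then -1.07 and -1.21 at P5 and -1.12, -1.23 and -1.35 at P56. All E14 arrays lay below the rest, and the 3 later stages overlapped. As a geometric mean this is 15.6% of the reference signal at E14, 41.7% at E18, 45.3% at P5 and 42.6% at P56. The rise from E14 to E18 was 1.42 on the log2 scale (SE 0.11, adjusted p = 6.59e-07), a 2.67-fold change. Later differences did not pass the test: P5 against E18 was 0.12 (95% interval -0.14 to 0.38) and P56 against P5 was -0.09 (-0.35 to 0.17).

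The second Rxra probe (chr2:27767107-27767166), far dimmer with a mean log2 brightness of 7.37 against 13.4, gave another course. It read -1.13, -1.29 and -1.23 at E14, -1.35, -1.14 and -1.21 at E18, -1.03 and -0.40 at P5, and -0.51, -0.11 and -0.26 at P56. Here the E14 and E18 arrays overlapped and P56 lay above both. E18 against E14 was -0.02 (SE 0.15, adjusted p over all probes = 0.943) and P56 against E18 was 0.94 (adjusted p = 2.00e-04). Both probes placed P56 above E14, by 1.45 and 0.93. With the mean of the 2 probes the E14 to E18 rise was 0.70 and P56 against E18 became 0.49 (adjusted p = 0.00112), and in the authors' table the latter was 0.75 (adjusted p = 0.00935). Cy5 signals of the dimmer probe at E14 and E18 were 6.45 to 6.75 on the log2 scale, near the floor. The part of low signal in its flat fetal course was not tested. Which probe follows the whole of the Rxra transcripts was not tested.

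Rxrb, the RXR isotype found in most tissues, showed no change that passed the test in any of the 6 comparisons. The array values were -0.17, -0.29 and -0.40 at E14, -0.33, -0.23 and -0.39 at E18, -0.41 and -0.37 at P5 and -0.41, -0.36 and -0.32 at P56. All stages overlapped. The E18 against E14 difference was -0.03 with a 95% interval of -0.23 to 0.17, and P56 against E14 was -0.08 with an interval of -0.28 to 0.12. The probe printed above ran between -0.75 and -0.27, was below the background limit on P56 replicate 2 only, and also passed in no comparison.

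Within each array, Rxra minus Rxrb was -2.40 ± 0.06 at E14 (mean ± SD, n = 3), rose to -0.95 ± 0.15 at E18 (n = 3) and stayed at -0.75 ± 0.14 in the P5 pair and -0.87 ± 0.16 at P56 (n = 3). This is the brighter Rxra probe, and the difference was 1.45 higher at E18 than at E14, with no overlap of arrays. The dimmer Rxra probe changed by -0.02 over that interval, where Rxrb changed by -0.03. The exact two-sided permutation p for the brighter probe was 0.1, the smallest that 3 against 3 arrays can give.

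**Figure D2:**
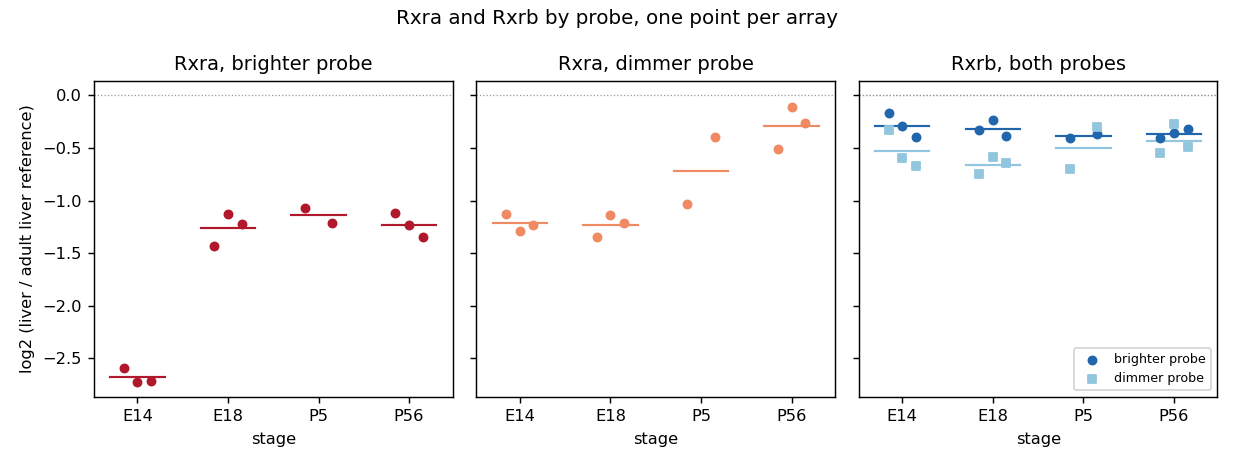
Log2 ratio to the adult liver reference (y axis) by stage (x axis) for both Rxra probes and both Rxrb probes. Points are arrays and lines are stage means. The brighter Rxra probe steps up from E14 to E18 by 1.42 and the dimmer one does not (-0.02), while the Rxrb probes stay between -0.75 and -0.17.

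Rxrg, the isotype known best from muscle and brain, took the opposite direction before birth. It read -1.94, -2.15 and -2.41 at E14, -2.88, -2.86 and -2.93 at E18, -2.25 and -1.42 at P5 and -0.18, -0.03 and -0.39 at P56. E18 lay below every other stage and P56 above. It fell by 0.73 from E14 to E18 (SE 0.19, adjusted p = 0.00749). It was 1.06 higher at P5 than at E18 (adjusted p = 0.00727) and 1.63 higher again at P56 (adjusted p = 7.83e-05). The E18 signals were near the floor, and with other processing E18 against E14 ran from -1.88 to -0.63. P56 against E18 then ran from 1.77 to 4.66. The 2 P5 arrays differed by more than the E14 arrays did, and without P5 replicate 3 the P5 against E18 value was 0.64 (adjusted p = 0.0645). Without P5 replicate 2, P5 was 0.75 above E14 (adjusted p = 0.00501), a difference that did not pass with both arrays.

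Nr1h4 encodes FXR, the bile acid receptor, and had the widest span of the 10 receptors, rising in 2 separate steps. The values were -3.38, -3.68 and -3.46 at E14, -1.35, -1.09 and -1.03 at E18, -1.18 and -1.05 at P5 and 0.22, 0.01 and 0.19 at P56. E18 and P5 overlapped, and neither overlapped E14 or P56. The first step was 2.35 (SE 0.12, adjusted p = 2.81e-08), or 5.10-fold, and the second, from P5 to P56, was 1.25 (adjusted p = 1.37e-05). P5 against E18 was 0.04 (95% interval -0.24 to 0.33). Over the whole course Nr1h4 went from 8.79% to 110% of the reference signal. That difference was 3.65 on the log2 scale and ran from 2.95 to 4.38 with other processing. E18 against E14 then ran from 2.16 to 3.00.

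Nr1i2 encodes PXR, a sensor of drugs and bile acids that drives Cyp3a genes. It read -2.78 and -3.21 at E14, where the spot on replicate 3 was marked non-uniform and left out, -1.72, -1.41 and -1.27 at E18, -1.11 and -1.02 at P5 and -0.69, -0.76 and -0.46 at P56. Stages followed each other without overlap. The rise from E14 to E18 was 1.53 (SE 0.17, adjusted p = 2.62e-05), and 1.42 with the spot kept. The later steps of 0.40 (adjusted p = 0.137) and 0.43 (adjusted p = 0.0563) did not pass, while P56 against E18, 0.83, did (adjusted p = 5.45e-04).

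Nr1i3 encodes CAR, the receptor behind phenobarbital-type induction of Cyp2b genes. It climbed from -2.41, -2.56 and -2.67 at E14 to -1.75, -1.61 and -1.46 at E18, -0.89 and -0.56 at P5 and -0.58, -0.28 and 0.01 at P56. Only P5 and P56 overlapped. The first 2 steps were alike in size, 0.94 (SE 0.15, adjusted p = 3.44e-04) and 0.88 (adjusted p = 0.00618), and the last was 0.44 (adjusted p = 0.0524). Without P5 replicate 3 the second step was 0.72 (adjusted p = 0.0672), and the last step was 0.60 (adjusted p = 0.0293). Without P56 replicate 1 the last step was 0.59 (adjusted p = 0.00936).

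Ppara encodes PPARα, which turns on fatty acid oxidation, and its highest stage mean was at E18, not P56. Its probe is spotted 10 times on each array, of which 7 to 10 were used after flagged spots were left out, and the mean over spots was -2.38, -2.70 and -2.57 at E14, -0.66, -0.51 and -0.39 at E18, -0.62 and -0.80 at P5 and -1, -1.14 and -1.05 at P56. E14 lay below all other arrays, and P56 lay below E18 and P5. E18 and P5 overlapped, and P5 against E18 was -0.19 (adjusted p = 0.338). Ppara rose by 2.03 from E14 to E18 (SE 0.11, adjusted p = 5.07e-08), a 4.09-fold change, and fell by 0.54 from E18 to P56 (adjusted p = 0.00103). The share of that fall after P5 was -0.35 (adjusted p = 0.0353). Without P5 replicate 2 it was -0.26 (adjusted p = 0.243), without P56 replicate 2 it was -0.31 (adjusted p = 0.0829) and without P56 replicate 3 it was -0.36 (adjusted p = 0.067).

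Nr1h3 encodes LXRα, the oxysterol receptor of liver and macrophages, and was the one receptor whose P56 arrays all read well above 0. It read -1.23, -1.46 and -1.40 at E14, -0.80, -0.62 and -0.58 at E18, -0.10 and -0.15 at P5 and 0.78, 0.79 and 1.08 at P56. Stages followed each other without overlap. The 3 steps were 0.70 (SE 0.11, adjusted p = 2.86e-04), 0.54 (adjusted p = 0.0139) and 1.01 (adjusted p = 5.16e-05). The middle step was 0.57 (adjusted p = 0.063) without P5 replicate 3.

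Nr0b2 encodes SHP, a classical FXR target that represses bile acid synthesis, and its rise came later than that of Nr1h4. The arrays read -0.87, -1.24 and -0.94 at E14, -0.93, -0.89 and -0.95 at E18, 0.13 and 0.16 at P5 and -0.40, 0.07 and 0.04 at P56. E14 and E18 overlapped, and both lay below the postnatal arrays. E18 against E14 was 0.09 (95% interval -0.20 to 0.39), whereas P5 was 1.07 above E18 (SE 0.15, adjusted p = 9.16e-04), and P56 against P5 was -0.24 (adjusted p = 0.21). Fetal Nr0b2 signals in Cy5 were low, at 6.31 to 6.62 on the log2 scale. With other processing E18 against E14 ran from 0.08 to 0.60 (lowest adjusted p = 0.0527) and P5 against E18 from 0.98 to 1.96. The difference between Nr0b2 and Nr1h4 in timing was not tested.

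Nr5a2 encodes LRH-1, an activator of bile acid synthesis genes, and rose step by step. It read -2.93, -3.14 and -2.91 at E14, -2, -2.28 and -2 at E18, -1.68 and -1.42 at P5 and -1.26, -1.39 and -1.39 at P56. Its stages did not overlap, though the last step, 0.21, did not pass the test (adjusted p = 0.212). The first was 0.90 (SE 0.11, adjusted p = 5.41e-05) and the second 0.55 (adjusted p = 0.0161). The second step was 0.45 (adjusted p = 0.0585) without E18 replicate 2 and 0.42 (adjusted p = 0.153) without P5 replicate 3.

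**Figure D3:**
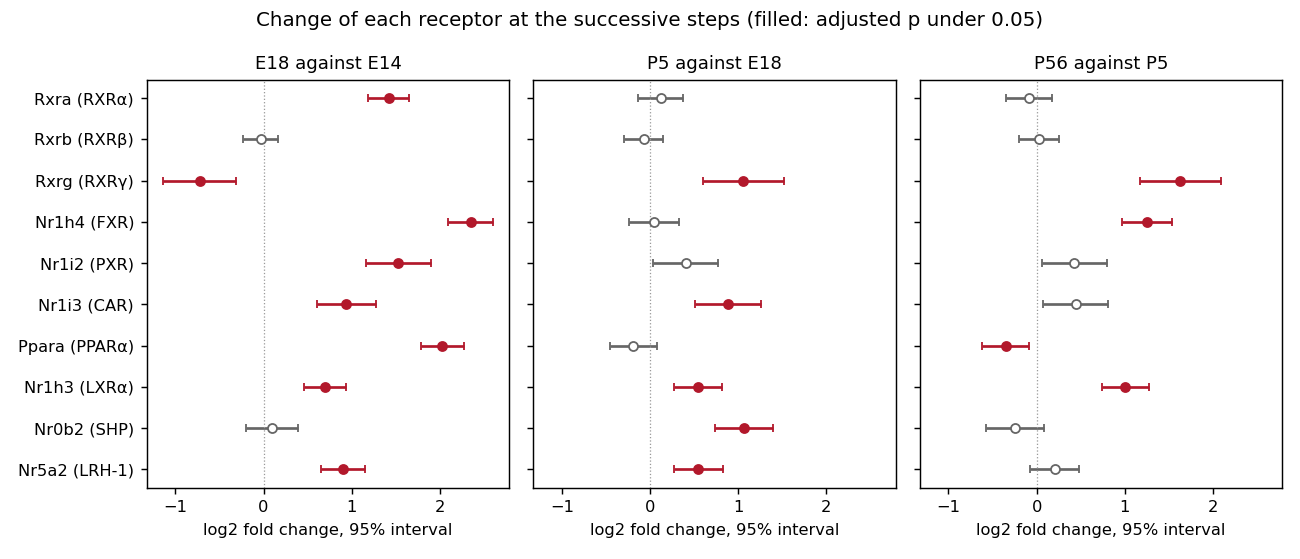
Log2 fold change (x axis) with its 95% interval for each receptor (y axis) at the 3 successive steps. Filled points have an adjusted p under 0.05. In the first panel 7 receptors lie to the right of 0 with filled points, up to 2.35 for Nr1h4, and Rxrg lies to the left at -0.73.

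Of the successive steps, that from E14 to E18 held the most calls. From E14 to E18, 7 of 10 receptors rose and 1 fell, against 24.6% and 22.8% of all genes called higher and lower, and 8 of 10 had arrays that did not overlap against 62.4% of all genes. The median of the 10 was 0.92, and that of all genes -0.01. From E18 to P5, 5 rose and 0 fell, against 7.32% and 6.40% of all genes, with a median of 0.47. Without P5 replicate 3 only Nr0b2 rose in that comparison. From P5 to P56, 3 rose and 1 fell, against 20.9% and 24.7%, with a median of 0.32, the fall being that of Ppara. P56 against E18 gave 7 higher and 1 lower, against 31.2% and 33.6%. P56 against E14 gave 9 higher and 0 lower, against 36.1% and 34.8%, and P5 against E14 gave 8 and 0, against 24.9% and 24.1%. These comparisons share arrays, and the genes are known liver receptors, so the counts are a description.

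From E14 to E18 and from P5 to P56, allowing for the scan changed few of these values, each time through 1 linking array. Within scan 1, E18 replicate 1 stood above the E14 mean by 1.25 for Rxra, 2.16 for Nr1h4, 1.27 for Nr1i2, 0.80 for Nr1i3, 1.89 for Ppara, 0.57 for Nr1h3 and 0.99 for Nr5a2, and by -0.72 for Rxrg. Within scan 4, P56 against P5 replicate 3 was 1.22 for Rxrg, 1.19 for Nr1h4, 1.03 for Nr1h3 and -0.26 for Ppara. With scan as a fixed block Ppara no longer passed in P56 against P5 (-0.26, adjusted p = 0.221). With scan as a random block, which could be fitted to all 6 comparisons, no receptor changed its call. Fetal and postnatal stages share no scan, so between them this block cannot separate scan from stage.

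The later stages also depend on how the 2 channels are balanced. Centring each array on its median in place of loess moved the median of all genes in P56 against E18 to -0.43, in P56 against P5 to -0.47 and in P56 against E14 to -0.33, and that of the other 3 comparisons by less than 0.1. On that scale P56 against E18 was -0.10 for Nr5a2, -0.002 for Nr1i2 and 0.15 for Nr0b2 (adjusted p = 0.257), each above the shift of all genes, and none passed. Rxrg, Nr1h4, Nr1i3 and Nr1h3 still rose and Ppara still fell in that comparison, and Rxrb was called lower, at -0.93 (adjusted p = 4.92e-05). In P56 against P5, Nr1h4 (0.51, adjusted p = 0.0718) and Nr1h3 (0.22, adjusted p = 0.316) no longer passed. Rxra (-0.60, adjusted p = 0.0288) and Nr0b2 (-0.92, adjusted p = 6.60e-05) were newly called lower there, as were Rxrb and Nr5a2, with the median of all genes at -0.47. The E14 to E18 calls were the same in the alternatives that tested each receptor, for Rxra through its brighter probe or the mean of both. Nr1i2 was not tested where a value was required on every array, and the dimmer Rxra probe did not pass (-0.02).

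By root mean square difference over the arrays after centring each gene, the profile nearest to Rxra was 5730403B10Rik (0.10), that nearest to Nr1h4 was Klf15 (0.14), to Nr1i3 Clmn (0.10), to Ppara 1600014C10Rik (0.10) and to Nr1h3 Crem (0.08). Nr1i2, over 10 arrays, was nearest to Hal (0.13), Nr0b2 to Tmprss2 (0.15), Rxrg to 8430416G17Rik (0.19) and Rxrb to Matk (0.06). Among the receptors themselves the nearest pairs were Nr1i3 with Nr1h3 (0.25) and Rxra with Ppara (0.27). Nr1h4 itself ranged over an SD of 1.45 and Rxrb over 0.08, so a small distance from Rxrb means only a flat profile.

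Other nuclear receptors were read beside the 10. Of 9 further RXR partners measured, 3 rose and 1 fell from E14 to E18, near the 24.6% and 22.8% of all genes called higher and lower, with a median of 0.03. The thyroid hormone receptor Thrb rose by 0.98 on its brightest probe (adjusted p = 2.54e-05). Its other probes gave 0.47 (adjusted p over all probes = 0.00256) and 0.04 (adjusted p = 0.89). Pparg, best known from fat cells, rose by 0.57 (adjusted p = 0.00139), and the retinoic acid receptor Rarb fell by 0.94 (adjusted p = 1.16e-04). Of 17 receptors outside the RXR partners, 9 rose and 0 fell, with a median of 0.35, against the same shares of all genes. Hnf4a, a master regulator of hepatocyte genes, rose by 1.47 on its brightest probe (adjusted p = 7.86e-07), while its other probes gave 0.34 (adjusted p over all probes = 0.0406) and 0.11 (adjusted p = 0.532). From E18 to P56 the clock receptor Nr1d2 rose by 3.37 (adjusted p = 4.75e-09), and the thyroid hormone receptor Thra fell by 1.04 (adjusted p = 1.53e-06). The second Thra probe gave -0.36 (adjusted p over all probes = 0.00368).

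Of 14 coactivators and corepressors, which RXR pairs recruit to their targets, 7 rose and 4 fell from E14 to E18 (median 0.38), against 24.6% and 22.8% of all genes. From E18 to P56, 1 rose and 10 fell on their brightest probes (median -0.54), against 31.2% and 33.6%. Ppargc1a, the coactivator of oxidative metabolism, rose by 1.45 before birth (adjusted p = 5.42e-05) and by a further 0.97 from E18 to P5 (adjusted p = 0.0106), and fell by 1.71 from P5 to P56 (adjusted p = 4.79e-05). Over E18 to P56 that probe gave -0.74 (adjusted p over all probes = 0.00406) and its second probe -0.24 (adjusted p = 0.214). Carm1 fell by 0.57 over E18 to P56, but its second probe rose by 0.35 (adjusted p over all probes = 0.00831). Ncoa6 fell by 1.40, where its second probe gave -0.23 (adjusted p = 0.188). Prmt1, an arginine methyltransferase that acts as coactivator, fell by 1.19 before birth (adjusted p = 2.94e-05) and by 1.60 from E18 to P56 (adjusted p = 1.44e-06). The erythroid and cell cycle markers fell from E18 to P56, the latter from between 2.84 and 2.91 at E18 to between -0.66 and -0.33 at P56. Their part in the cofactor result was not tested.

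Among 16 genes of retinoid supply and breakdown, which make or remove the ligands of RXR and of the retinoic acid receptors, 9 rose and 2 fell from E14 to E18 (median 0.39), against 24.6% and 22.8% of all genes. From E18 to P56, 8 rose and 3 fell (median 0.27), against 31.2% and 33.6%. Ttr, a plasma carrier, rose by 2.95 before birth (adjusted p = 3.19e-09), and Aldh1a2, which makes retinoic acid, fell by 1.17 (adjusted p = 7.12e-06). Cyp26a1, which degrades retinoic acid, read -1.24, -0.99 and -1.25 at E18, not well above background there, and 1.56, 1.18 and 3.15 at P56. It was at least 8.97-fold higher at P56 (adjusted p = 2.35e-05), a bound from the lowest Cy5 signal counted as well above background on each E18 array. Aldh1a1, which oxidises retinal, was 4.47 higher at P56 than at E18 (adjusted p = 7.82e-09).

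Known target genes of the partner receptors were read from 4 lists, and in all 4 most genes rose from E14 to E18. The counts were 11 higher and 1 lower of 14 FXR targets (median 1.95), 17 and 0 of 19 PPARα targets (median 1.54), 10 and 0 of 11 LXR targets (median 1.68) and 11 and 0 of 16 CAR and PXR targets (median 1.2), against 24.6% and 22.8% of all genes. The mature hepatocyte markers, 10 of 12 higher with a median of 2.27, moved the same way, and their part in the target lists was not tested.

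The FXR targets hold genes of both signs of control. Abcb11, the bile salt export pump that FXR induces, went from -4.62, -4.93 and -4.64 at E14 to -0.30, -0.11 and 0.02 at E18, a rise of 4.60 (adjusted p = 1.83e-09), and then -0.68 and -0.19 at P5 and 0.07, -0.19 and 0.08 at P56, with no later call. Cyp7a1, the rate-limiting enzyme of bile acid synthesis, which SHP represses, read -3.17, -3.46 and -3.31 at E14, -0.36, -0.59 and -0.40 at E18, -1.73 and -0.83 at P5 and 2.26, 2.26 and 2.53 at P56. It rose by 2.86 (adjusted p = 2.44e-07), fell by 0.83 at P5 (adjusted p = 0.0237) and rose by 3.63 to P56 (adjusted p = 1.38e-07). Nr0b2 rose over the same step from E18 to P5 on the same arrays, and the relation was not tested. The second Cyp7a1 probe gave 0.93 and 0.85 for E18 against E14 and P56 against E18, where the first gave 2.86 and 2.80. Cyp8b1, another enzyme of that pathway, rose by 0.92 before birth (adjusted p = 9.32e-04) and by 1.08 from P5 to P56 (adjusted p = 7.54e-04), and Slc10a1, the bile acid uptake carrier, rose by 2.92 (adjusted p = 3.69e-07) and 0.69 (adjusted p = 0.0263, and -0.04 with arrays centred on their median) at these steps.

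Of the 19 PPARα targets, 10 rose and 0 fell from E18 to P5 (median 0.62), against 7.32% and 6.40% of all genes, and 2 rose and 10 fell from P5 to P56 (median -0.58), against 20.9% and 24.7%. Cyp4a14, a fatty acid hydroxylase, read -5.15, -5.42 and -5.42 at E14, -0.41, -0.66 and -0.35 at E18, 3.61 and 3.92 at P5, where the Cy5 spot of replicate 2 was saturated, and -0.74, -0.03 and 1.02 at P56. Its steps were 4.86 (adjusted p = 2.64e-07), 4.24 (adjusted p = 3.18e-05) and -3.68 (adjusted p = 9.43e-06). Without the saturated array the steps to and from P5 were 4.39 and -3.83, from 1 P5 array. Cpt1a, which admits fatty acids to mitochondria, gave 1.54, 1.18 and -1.12, all past the test, though its second probe gave 0.41 for the first step. Cyp4a10 gave 1.48, 2.38 and -1.55, and its other probes gave 0.94 and 0.21 for the first step, the latter not past the test. The Cyp4a genes are close paralogs, and cross-hybridisation between them was not tested. Ppara mRNA itself did not rise from E18 to P5 (-0.19, 95% interval -0.46 to 0.08).

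Of 11 LXR targets, 5 were higher and 5 lower at P56 against E18 (median 0.07), against 31.2% and 33.6% of all genes. Abca1, the cholesterol exporter, rose by 2.53 before birth (adjusted p = 6.25e-07) and fell by 1.79 from E18 to P56 (adjusted p = 5.81e-06). Lpl, lipoprotein lipase, went from -1.56, -2.03 and -1.71 at E14 to 2.00, 1.83 and 2.20 at E18, 1.74 and 1.47 at P5 and -3.14, -2.67 and -2.98 at P56. Scd1, the fatty acid desaturase, read -1.41, -1.52 and -1.23 at E18, -3.27 and -2.84 at P5 and 1.39, 1.02 and 0.16 at P56. It was 2.24 higher at P56 than at E18 (adjusted p = 8.08e-06). Srebf1, the regulator of lipid synthesis, rose by 1.99, fell by 1.60 and rose by 0.90 at the 3 steps. Its arrays in the last step were uneven, at -1.38 and -1.53 at P5 and 0.29, -1.21 and -0.76 at P56. Nr1h3 rose at each of the 3 steps.

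Of the 16 CAR and PXR targets, 6 were higher and 2 lower at P5 than at E18 (median 0.48), against 7.32% and 6.40% of all genes, and 10 were higher and 0 lower at P56 than at P5 (median 0.88), against 20.9% and 24.7%. Cyp3a11, the main PXR-induced P450, rose by 1.43 (adjusted p = 1.66e-04), 0.83 (adjusted p = 0.038) and 1.80 (adjusted p = 8.43e-05). Cyp2b10, the usual readout of CAR, gave -0.11 (adjusted p = 0.628) before birth and rose by 1.08 (adjusted p = 0.00319) and 0.78 (adjusted p = 0.00491) afterwards, the last being -0.12 with arrays centred on their median. P450 genes of these families have near-identical copies, and their probes were not tested for cross-hybridisation.

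**Figure D4:**
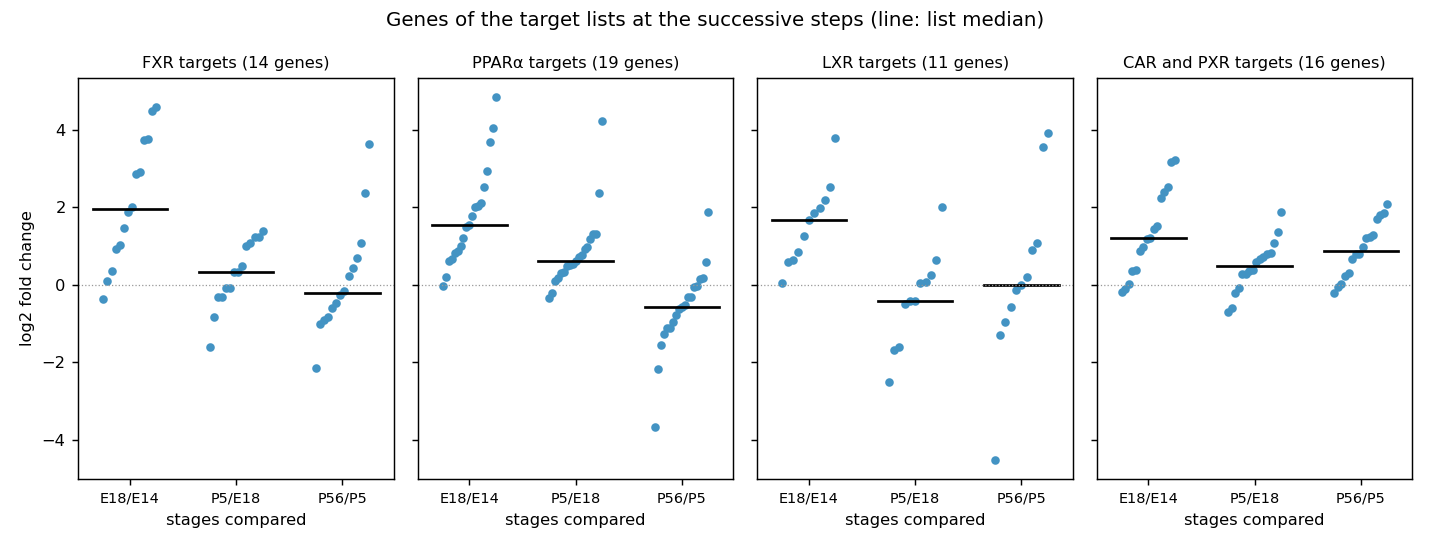
Log2 fold change (y axis) of the genes of 4 target lists at the 3 successive steps (x axis). Each point is a gene, and the line is the list median. All 4 medians are above 1 for E18 against E14, and that of the PPARα targets falls to -0.58 for P56 against P5.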

How the data were processed

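The 11 samples are 2-colour arrays of the Agilent 4x44k mouse design, with liver RNA in Cy5 and the adult reference in Cy3. The authors deposited the spot intensities that Feature Extraction 9.5.1.1 wrote, not normalized between arrays, and a table of normalized log2 ratios per gene, used as an alternative only. Dyes and stages were taken from the labels and methods, and array positions are on mm7.

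Mean signals were corrected for median local background by normexp (offset 50), followed by loess of the log2 ratios within each array. Control spots (1639 per array) and spots flagged as outliers (177 to 356 per array) were left out, and spots of a probe were averaged. Probes had to be well above background in Cy5 throughout some stage, with at most 1 missing value per stage, and genes were represented by their brightest probe. A single limma model (version 3.58.1, lmFit and eBayes, R 4.3.3) was fitted to the 11 arrays, p-values were adjusted by Benjamini-Hochberg over 16704 genes (or 23525 probes), and 0.05 was the threshold. Of the genes, 1 receptor, Nr1i2, lacked a value on 1 array and was fitted without it. The number of arrays limits the precision.

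The receptors and the 17 other gene lists were chosen with earlier results of these data known, so list counts are descriptions. Genes named besides the receptors were taken from the 2 largest rises and falls without overlap of each list in E18 against E14 and P56 against E18, from 13 textbook targets, and, by root mean square difference, from the nearest profiles, of which that of Nr5a2 is not reported here. The fit was tested on simulated data. Names are those of the array design, and the accessions of all 12 receptor probes matched the same symbols in the RefSeq table of GRCm38.p6, whose promoter sequences were searched. Figures were drawn with matplotlib. Alternatives were other background corrections, normalizations, filters and probe rules, the Cy5 channel alone, the authors' table, blocks for the replicate number or the scan, leaving out single arrays, and the methods' t-test. Tumor and human samples were not analysed here.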

Additional observations from a re-analysis of the deposited data

How the results depend on the processing

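The receptor calls for E18 against E14 kept their direction and side of the threshold in the alternatives that tested each gene. Nr1i2 was not tested where a value was required on every array, which left 6 receptors higher, and the dimmer Rxra probe, read alone, did not pass (-0.02, adjusted p = 0.943). Aquantile leaves log ratios as they are, so it changed nothing, and the difference of Rxra and Rxrb within an array kept its side of the threshold throughout, since no split of so few arrays can pass it. The small number of arrays, 2 at P5 above all, limits what can be told of the steps around birth. The 12 receptor probes kept their calls with no filter on dim probes. Causes were not tested.

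Centring arrays on their median moved the genes called higher to 651 in P56 against P5, 1577 in P56 against E18 and 2444 in P56 against E14, and those called lower to 8864 and 8988 in the first 2 and 555 in P5 against E18. The share of calls that were higher went from 45.7% to 6.8%, 48.1% to 14.9% and 51% to 22.9% in the 3 comparisons with P56. Receptors called higher were then 3 in P5 against E18, 1 in P56 against P5 and 4 in P56 against E18, and receptors called lower were 5, 2 and 1 in P56 against P5, E18 and E14. Values that turned under centring were -0.87 for Rxrb (adjusted p = 2.82e-04) and -0.69 for Nr5a2 in P56 against P5, and -0.002 for Nr1i2 and -0.10 for Nr5a2 in P56 against E18. In P56 against P5 so did Cyp2b10 (-0.12), Fgf21 (-0.73), Hnf4a (-0.35), Pparg (-0.84), Ppargc1b (-0.31) and Slc10a1 (-0.036), and in P56 against E18 Cpt1a (-0.57), Hnf4a (-0.14), Ppargc1b (-0.058), Rarb (-0.32) and Thrb (-0.48). In the authors' table Aldh1a3 (0.33) and Carm1 (0.11) turned in P56 against E18. List medians less the median of all genes became, under centring, -0.37 for the other RXR partners, 0.20 for other nuclear receptors, -0.62 for cofactors, 0.40 for retinoid genes, -0.04 for FXR targets and 0.67 for CAR and PXR targets in P56 against P5. They became 0.29, -0.77, 0.44 and 0.42 for other nuclear receptors, cofactors, retinoid genes and FXR targets, -0.14 for PPARα targets and -0.11 for LXR targets in P56 against E18. In E18 against E14 they were 1.77 for FXR targets and 1.00 for CAR and PXR targets, and -0.21 for LXR targets in P5 against E18.

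The authors' table gave 213 genes higher and 79 lower in P5 against E18, 2254 higher in P56 against P5, 1733 lower in E18 against E14 and 1582 lower in P5 against E14, with higher shares of 72.9%, 63.9% and 65.2% in P5 against E18, E18 against E14 and P5 against E14, where the main values were 53.4%, 51.9% and 50.7%. It called 2 receptors higher in P5 against E18 and 0 lower in P56 against P5. Scan as a fixed block gave 2015 higher and 2657 lower in P56 against P5, 2343 lower in E18 against E14 and 0 receptors lower in P56 against P5. Requiring all 11 arrays well above background gave 3723 and 3731 lower in P56 against E18 and E14, from fewer genes tested, and 5 receptors higher in P56 against P5. No background subtraction and the scanner's processed signals also gave 5 there, and the Cy5 channel alone 6. Processed signals gave 656 genes lower in P5 against E18 and 1 receptor lower in P5 against E14. An offset of 16, processed signals and the Cy5 channel alone left 0 receptors lower in P56 against P5. The methods' t-test after Benjamini-Hochberg called 40 genes higher and 21 lower in P5 against E18, 105 and 193 in P56 against P5 and 2129 lower in P5 against E14, with 1 receptor higher in P5 against E18 and 0 higher and 0 lower in P56 against P5. Unadjusted it called 1635 genes lower in P5 against E18. Keeping outlier spots, an alternative chosen after seeing the data, changed no receptor call.

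With arrays left out, genes called in P5 against E18 ran from 582 to 1850 higher and from 346 to 1913 lower, the extremes without P5 replicate 3 and without P5 replicate 2. In P56 against P5 they ran from 2071 to 3788 higher and from 2670 to 4422 lower. Receptors called ran from 1 to 5 higher in P5 against E18, the lowest without P5 replicate 3, and from 0 to 1 lower in P56 against P5. Deviations of same-numbered replicates from their stage means had an r of -0.30 to 0.19 over 15 pairs. With 2 or 3 arrays per stage such deviations are tied to each other, so whether the numbers pair the arrays cannot be told. With the replicate number as a block, Ppara (-0.37, adjusted p = 0.0601) no longer passed and Nr1i3 (0.49, adjusted p = 0.0418) passed in P56 against P5, leaving 0 receptors lower there, and no other receptor call changed.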
